A study of Mus musculus with 6 samples.

Results

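The natriuretic peptide system of the mouse heart was read from 7 genes out of 17447 in the table, chosen by symbol: the hormone genes Nppa, Nppb and Nppc, the receptor genes Npr1, Npr2 and Npr3, and Corin. All 7 were rows of the table. The series compared hearts of wild-type mice after a sham operation (3 samples) with hearts of wild-type mice with chronic kidney disease (CKD) made by subtotal nephrectomy in stages (3 samples). Sham mice had the same anaesthesia and opening of the abdomen, and their kidneys were exposed but left whole. The labels give the tissue as heart with no chamber, and give no age, sex, strain or time after surgery. They number the samples without saying that each is a separate animal, so the spread between samples may in part be technical. The batch label is the same for all 6 samples.

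Natriuretic peptides are hormones that the heart releases when its walls are stretched. Nppa encodes atrial natriuretic peptide (ANP), Nppb B-type natriuretic peptide (BNP) and Nppc C-type natriuretic peptide (CNP). ANP is stored in granules of atrial muscle cells, BNP is made in atria and ventricles, and CNP is mainly a product of the endothelium, cartilage and brain. Npr1 encodes the receptor guanylyl cyclase for ANP and BNP, Npr2 the receptor guanylyl cyclase for CNP, and Npr3 the clearance receptor, which takes up all 3 peptides and has no cyclase domain. Corin encodes a transmembrane serine protease of heart muscle cells that cuts the ANP precursor into the active hormone.

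The 3 hormones share a ring closed by a pair of cysteines, and the stretch of coding sequence for that ring is shown for Nppb and Nppc because it is the part that marks these genes as a family. The sequences are from the GENCODE M21 transcripts (GRCm38), 5′ to 3′, and capitals mark the first and last cysteine codon, with 15 codons between them.
Nppb: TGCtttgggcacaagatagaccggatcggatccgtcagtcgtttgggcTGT
Nppc: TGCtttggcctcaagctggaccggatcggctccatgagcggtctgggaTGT
The ring stretch covers bases 295 to 345 of the 363 coding bases of Nppb and 328 to 378 of the 378 of Nppc. In Nppc the second cysteine codon is the last codon before the stop, whereas Nppb goes on past it. The pair had the same base at 40 of 51 positions, and 13 of 17 codons encode the same residue.

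Row labels in the CKD columns were checked first. Spearman correlations across all rows were 0.982 to 0.985 between sham columns, 0.984 to 0.987 between CKD columns and -0.0586 to -0.0528 between a sham and a CKD column. Of 10 cardiac genes with a mean percentile of 99.8 to 100 in sham, 3 (Myh6, Mb and Myl2) had at most 1 count in every CKD column, and the median percentile of the 10 in the CKD columns was 29.7. For that reason only the sham columns are described, and CKD is compared with nothing. In sham the defining genes of heart muscle were thus among the highest rows. Sham totals ran from 10474487 to 12669724 counts, and levels are given in CPM, the count over the column total times 1000000. Sham 1 had the highest sum of atrial markers. Sham 2 had the lowest sums of atrial, fibroblast, adipocyte and mesothelial markers. Sham 3 stood apart in haemoglobin genes, whose list summed to 111, 82.7 and 485 CPM in sham 1, 2 and 3.

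Nppa had the highest mean of the members, which rests on sham 1, and the widest range between hearts. In sham 1, 2 and 3 its counts were 12772, 675 and 3186, or 1219, 64.4 and 251 CPM. The 3 hearts were all different, with sham 1 highest and sham 2 lowest. The mean of 512 ± 619 CPM (SD, n = 3) describes no single heart, and without sham 1 it was 158 CPM, below the 265 CPM of Corin without that heart. By counting error alone, the level in sham 1 was 18.9 times that in sham 2 (exact 95% interval 17.5 to 20.5) and 4.85 times that in sham 3 (4.66 to 5.04), a comparison of these libraries and not of conditions. In bulk tissue, more atrial cells in the sample and more Nppa RNA in each cell cannot be told apart.

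Nppb varied far less. It gave 1770, 1078 and 1306 counts in sham 1, 2 and 3, or 169, 103 and 103 CPM, a mean of 125 ± 38.0 CPM (SD, n = 3). Sham 1 was again the highest heart, at 1.64 times sham 2 (exact interval 1.52 to 1.77). Sham 2 and sham 3 had a ratio of 0.998 (0.920 to 1.08), so the order of those 2 hearts was not resolved. The excess in sham 1 was thus shared by both cardiac hormones but was much smaller for Nppb.

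Nppc, the gene of the endothelial hormone, was close to the limit of detection. Its counts were 1, 0 and 1 in the 3 hearts. The 0 of sham 2 still allows up to 0.286 CPM, taken as 3 counts and covering counting error alone. At this depth no difference between the hearts could be seen for this gene.

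**Figure D1:**
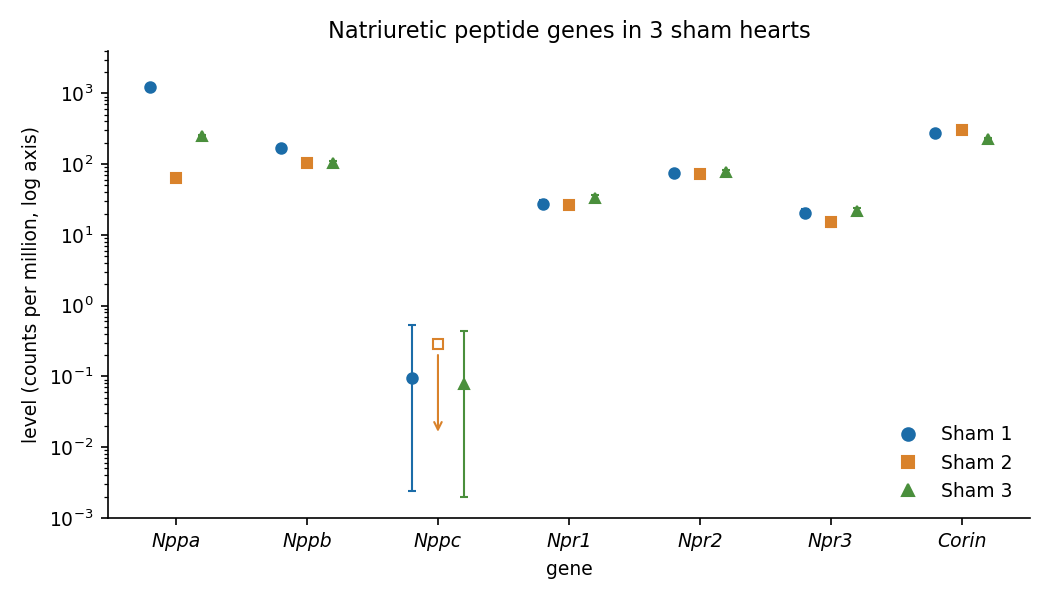
Level of the 7 genes in each sham heart in CPM, on a log axis, with exact 95% Poisson intervals; the open symbol with an arrow is the level of 3 counts where none was counted. Nppa ranges from 64.4 to 1219 CPM, while the receptors and Corin lie close together in the 3 hearts.

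The mix of hormone transcripts differed between hearts. Nppa made up 87.8%, 38.5% and 70.9% of hormone counts in sham 1, 2 and 3. Nppa counts per Nppb count were 7.22, 0.626 and 2.44. Nppb therefore exceeded Nppa in 1 of 3 hearts. The share of all counts held by the 7 genes together was 0.179%, 0.0586% and 0.0712%. Corin was the largest member in sham 2, with 52.2% of the member counts against 15.4% in sham 1.

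Among the receptors, Npr2 gave the most counts. It gave 787, 752 and 984 counts in sham 1, 2 and 3, or 75.1, 71.8 and 77.7 CPM, a mean of 74.8 ± 2.94 CPM (SD, n = 3). The 3 hearts differed little in Npr2, the highest being 1.08 times the lowest (exact interval 0.983 to 1.19). The fibroblast markers, all 10 of them lowest in sham 2 (as were 48.8% of all rows with at least 1 CPM), summed to 2101, 1065 and 2411 CPM in the same hearts. Their part in the Npr2 values was not tested.

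Npr1, the receptor for ANP and BNP, gave 287, 275 and 425 counts, or 27.4, 26.3 and 33.5 CPM. Sham 3 was the highest heart, at 1.28 times sham 2 (exact interval 1.10 to 1.49), and sham 1 and sham 2 were not resolved (1.04, 0.881 to 1.24). The mean was 29.1 ± 3.92 CPM (SD, n = 3). Npr1 is also a receptor of vascular endothelium, and 8 of 10 endothelial markers were lowest in sham 2 and 6 were highest in sham 3. Over all rows with at least 1 CPM, 48.8% were lowest in sham 2 and 42.0% highest in sham 3. The summed endothelial level was 1851, 1672 and 2034 CPM in sham 1, 2 and 3, and its part in the Npr1 values was not tested.

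Npr3, the clearance receptor, was the lowest of the 3 receptors in counts, with 216, 157 and 274 counts or 20.6, 14.99 and 21.6 CPM. Sham 2 was the lowest heart, at 0.693 times sham 3 (exact interval 0.566 to 0.846), while sham 1 and sham 3 were not resolved (0.953, 0.794 to 1.14). The mean was 19.1 ± 3.57 CPM (SD, n = 3). Npr3 is a marker of the endocardium, the inner lining of the heart. Of 5 other endocardial markers, 4 were also lowest in sham 2, as were 48.8% of all rows with at least 1 CPM. These 5 markers summed to 137, 96.8 and 171 CPM in sham 1, 2 and 3, and none was at 0. Their part in the Npr3 values was not tested.

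Corin was the most abundant member in sham 2 and had a heart order of its own. It gave 2877, 3204 and 2846 counts in sham 1, 2 and 3, or 275, 306 and 225 CPM, a mean of 268 ± 41.0 CPM (SD, n = 3). Sham 2, the heart with the least Nppa, had the most Corin, at 1.36 times sham 3 (exact interval 1.29 to 1.43), and 1.47 and 1.48 times when the totals were scaled by TMM or DESeq2 size factors. Of the 10 cardiac genes of the label check, 9 were also highest in sham 2. That heart was the highest for 20.98% of all rows with at least 1 CPM. The 10 genes, all among the highest rows, together took 13.5% of its total, against 12.2% for sham 1 and 12.1% for sham 3. Whether the part taken by these genes bears on the Corin values was not tested.

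The hormones were compared with the receptors and with Corin per length, since a longer transcript gives more counts for the same number of molecules. Levels were divided by the longest coding transcript, from 781 bases for Nppb and 865 for Nppa to 4862 for Corin and 6892 for Npr3. On this scale the order of mean levels was Nppa at 591, Nppb at 160, Corin at 55.2, Npr2 at 20.5, Npr1 at 7.15, Npr3 at 2.77 and Nppc at 0.0558 CPM per kb. Nppa and Nppb overlapped over the hearts (74.5 to 1409 and 132 to 216 CPM per kb). The next neighbours down to Npr3 did not overlap: the lowest Nppb value was 132 against a highest Corin value of 62.9, and the lowest Corin value was 46.2 against a highest Npr2 value of 21.2.

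The summed hormone level per kb was 53.7 times the summed receptor level in sham 1, 7.30 times in sham 2 and 12.97 times in sham 3, and so higher in 3 of 3 hearts. No test was made on these ratios, since over 3 hearts an exact two-sided sign-flip permutation test cannot go below p = 0.25. Without Nppa the hormones were still above the receptors, at 7.15, 4.67 and 4.05 times. In raw counts the same ratio without Nppa was 1.37, 0.910 and 0.777, so in sham 2 and sham 3 the excess of Nppb over the receptors appears only after the correction for length.

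Against Corin, the summed hormone level per kb was 28.8 times as high in sham 1, 3.28 times in sham 2 and 9.15 times in sham 3. For Nppa, whose product Corin cuts, the ratio was 25.0, 1.18 and 6.29. Nppb stood at 3.83, 2.09 and 2.86 times Corin. Corin itself differed by 1.36 times between hearts, so the range of the Nppa ratio came mainly from Nppa. Corin in turn was at 1.87, 2.23 and 1.42 times the 3 receptors together.

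Among the receptors the per-length order depends on which length is used. Npr2 stood above Npr1 in all 3 hearts, with Npr1 at 0.328, 0.329 and 0.389 of Npr2 per kb of transcript. Npr1 was at 2.25, 2.97 and 2.63 times Npr3 per kb of transcript, but at 0.674, 0.888 and 0.787 of Npr3 per kb of coding sequence. The longest Npr3 transcript has 6892 bases, of which 1608 are coding, so the choice weighs more for Npr3 than for Npr1 (4066 and 3171 bases). Which Npr3 transcripts these hearts made cannot be read from gene counts, and whether the cyclase receptor or the clearance receptor was more abundant is therefore not settled here. Npr2 was above Npr3 with either length, at 6.86, 9.02 and 6.76 times per kb of transcript and 1.87, 2.45 and 1.84 times per kb of coding sequence.

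**Figure D2:**
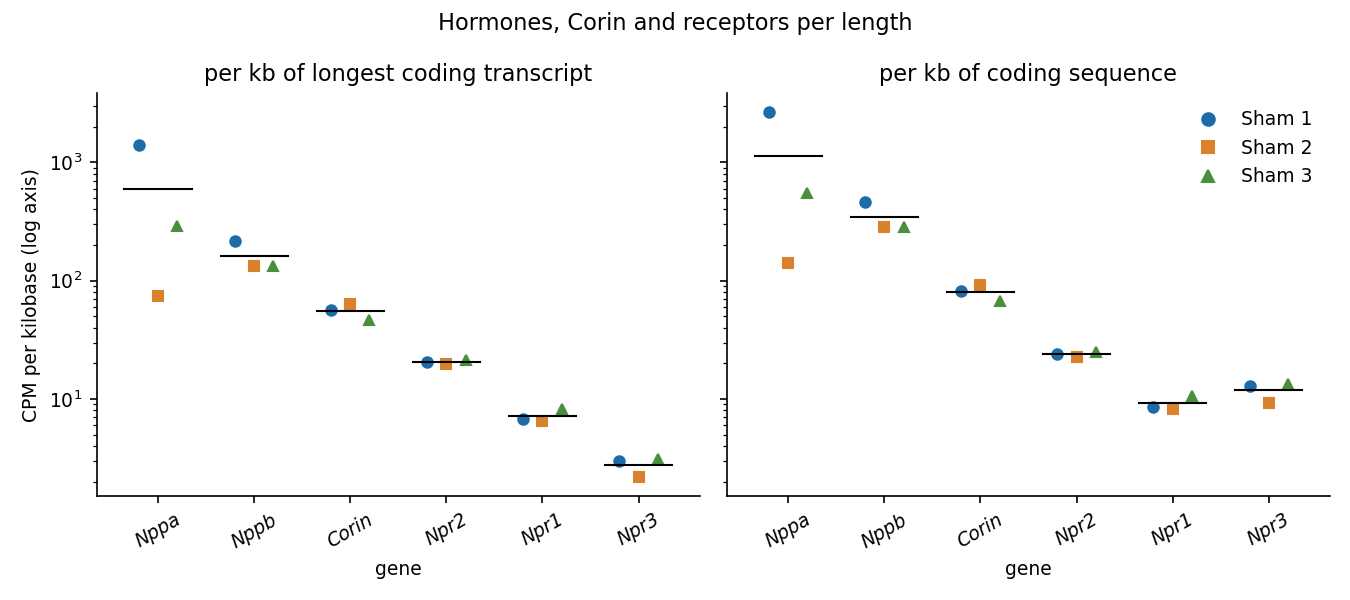
CPM per kilobase on a log axis for 6 genes in each sham heart, divided by the longest coding transcript (left) or the longest coding sequence (right); horizontal lines are means. Nppb, Corin and Npr2 keep their order in both panels, while Npr3 lies below Npr1 on the left and above it on average on the right.

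Spread between hearts was compared with that of all 8864 rows with a mean of at least 10 CPM, whose median coefficient of variation (CV, the SD as a percent of the mean) was 9.32%. Nppa had a CV of 121%, and 19 of these rows had a higher one. Nppb had a CV of 30.4%, at percentile 94.4. The CV was 18.7% for Npr3, 15.3% for Corin and 13.5% for Npr1, at percentiles 83.8, 75.7 and 70.1. Npr2 had a CV of 3.93%, at percentile 13.2, close to the 3.46% that counting error alone would give. Among these 6 members Nppa was the most uneven and Npr2 the least. The spread of Nppb came from sham 1, without which its highest over lowest heart was 1.00.

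**Figure D3:**
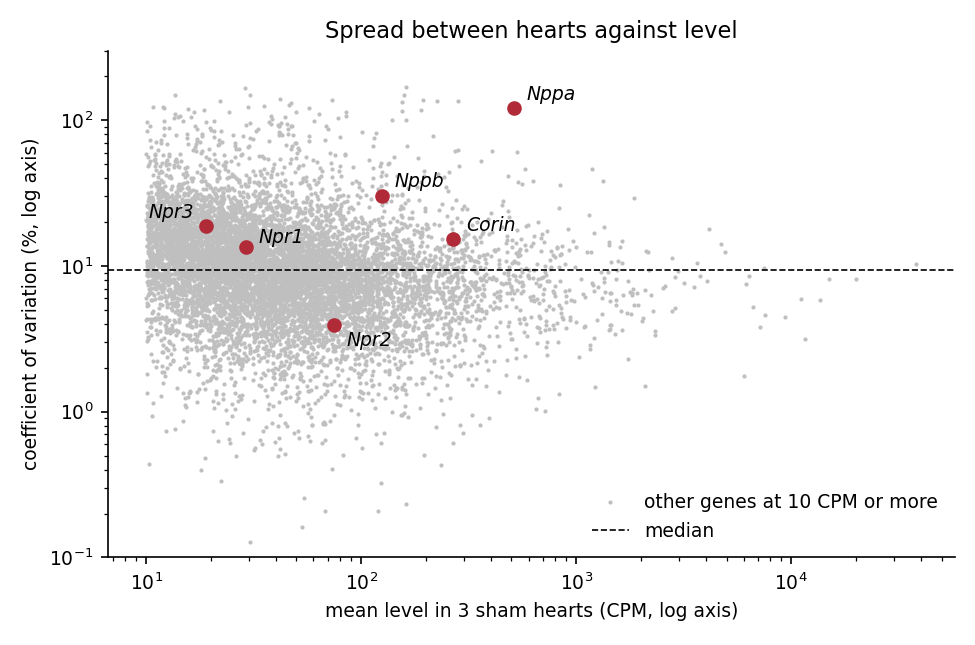
Coefficient of variation over the 3 sham hearts against mean level, both on log axes, for all rows with a mean of at least 10 CPM (grey) and 6 members (red); the dashed line is the median of 9.32%. Nppa sits at 121% and Npr2 at 3.93%.

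Most markers of atrial muscle were, like Nppa, highest in sham 1. Of 16 listed atrial markers, 15 averaged at least 1 CPM. Of these, 13 were highest in sham 1, 1 in sham 2 (Kcnk3) and 1 in sham 3 (Gja5). Over all rows at that level, 36.99% were highest in sham 1. Bmp10 passed that level through sham 1 alone, with 24.9, 0.0955 and 0.158 CPM in sham 1, 2 and 3. The list was chosen with earlier results of these data known, so its counts are a description only. The full order of Nppa, sham 1 above sham 3 above sham 2, was found in 10 of the 15, and in 23.3% of all rows with at least 1 CPM. The summed atrial level was 2237, 702 and 918 CPM in sham 1, 2 and 3. In sham 2 most of this sum was Kcnk3, Kcnj3 and Kcnj5, at 371, 121 and 118 CPM. Myl7 and Myl4 were at 1.43 and 2.39 CPM there. The sum therefore understates how far sham 2 lay below the other hearts in markers such as these 2 light chains. Of the 6 ventricular markers, 3 were highest in sham 1 and 3 in sham 2, as were 36.99% and 20.98% of all rows with at least 1 CPM. Their sums were 18032, 17220 and 16851 CPM. The part of the atrial share of each sample in the Nppa values was not tested.

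Of the 15 atrial markers, 6 were at a smaller share of their highest heart in sham 2 than Nppa (Myl7, Myl4, Sln, Bmp10, Dkk3 and Fgf12, at 0.174% to 1.61%). The other 9 were at 23.3% to 100%, against 5.29% for Nppa. The regulatory light chain of atrial myosin, Myl7, had 5207, 15 and 1032 counts, which put sham 2 at 0.288% and sham 3 at 16.4% of sham 1 in CPM. Myl4, the atrial essential light chain, gave 6000, 25 and 1269 counts, or 0.417% and 17.5% of sham 1. Nppa was at 20.6% of sham 1 in sham 3. There were 2.45 Nppa counts per Myl7 count in sham 1 and 3.09 in sham 3, but 45.0 in sham 2. Per Myl4 count the values were 2.13, 27.0 and 2.51 in sham 1, 2 and 3. Nppa RNA was thus present in sham 2 with these light chains, chosen after their values were seen, nearly absent.

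**Figure D4:**
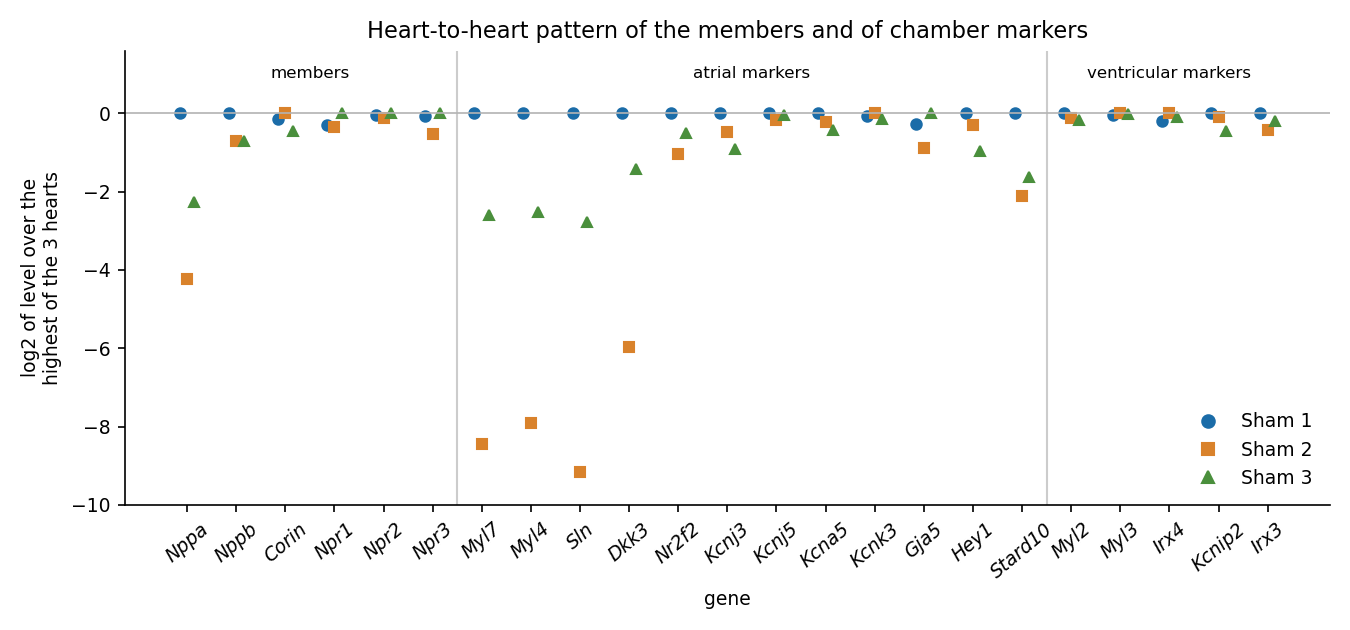
Level in each sham heart relative to the highest of the 3, as a log2 value, for 6 members, the 12 atrial and the 5 ventricular markers with a mean of at least 10 CPM. Nppa and the atrial light chains Myl7 and Myl4 are lowest in sham 2, the light chains by far more than Nppa, while the other members lie within 1 log2 unit of their highest heart, as do the ventricular markers.

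Nppa is also expressed in ventricular branches of the conduction system. Of 6 conduction markers with at least 1 CPM, 6 were lowest in sham 2 and 5 were highest in sham 1. Over all rows at that level the shares were 48.8% and 36.99%. Shox2, at 5.06, 0.573 and 1.34 CPM in sham 1, 2 and 3, averaged 1 CPM only with sham 1 included. This list too was chosen with earlier results known, so its counts are a description only. The list summed to 143, 47.3 and 112 CPM, and Isl1 was at 0 in all 3 hearts. Cacna2d2, a calcium channel subunit on that list, gave 452, 31 and 202 counts. Hcn4, the pacemaker channel, gave 328, 178 and 364 counts, with sham 1 and sham 3 not resolved (1.09, exact interval 0.935 to 1.27). Cntn2, an adhesion protein of Purkinje fibres, gave 284, 49 and 454 and was highest in sham 3. Their part in the Nppa values was not tested either.

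By distance over 3 hearts among 8861 rows with at least 10 CPM and a count in every heart, the row nearest to Nppa was the kinase gene Sbk3, with 753, 42 and 168 counts. There were 16.96, 16.1 and 19.0 Nppa counts per Sbk3 count in sham 1, 2 and 3, at a distance of 0.17 on the log2 scale. Cacna2d2 followed at 0.60, and Myh7, the slow myosin heavy chain, at 1.16, with 4141, 639 and 2445 counts. The next rows, at 1.26 to 1.54, were Egr1, Lmntd1, Scd1, Cldn5, Cdkn1a, Zfp36 and Cytl1. Of the atrial markers compared, Stard10 and Dkk3 were the nearest, at 1.55 and 1.85. The others ran from 2.27 for Nr2f2 to 3.84 for Sln. Myl7 was at 3.30, since it fell far more in sham 2. The rows nearest to Nppb were Ccn2, a secreted matrix protein gene with 1226, 750 and 910 counts, Hnmt and Rgs6, at distances of 0.0063, 0.035 and 0.079. With 3 hearts, such likeness is a description only.

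Other genes known to rise with strain on the heart were read from a list of 6. Of the 5 with at least 1 CPM, 4 were lowest in sham 2 and 3 were highest in sham 1. Myh7 was at 395, 61.0 and 193 CPM in sham 1, 2 and 3. Its highest heart was 6.48 times its lowest, the largest such ratio of the 5. Ankrd1, which encodes a titin-associated ankyrin repeat protein, was at 1737, 754 and 1494 CPM in sham 1, 2 and 3. Acta1, skeletal actin, was highest in sham 3, with 615, 293 and 826 CPM. Rcan1, a target of calcineurin signalling, gave 148, 78.2 and 138 CPM. Xirp1 was even, at 305, 354 and 327 CPM. Over all rows with at least 1 CPM, 48.8% were lowest in sham 2 and 36.99% highest in sham 1. Nothing about this list is therefore read from its counts.

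A list for the processing, storage and breakdown of the peptides was led by Pam, which encodes an abundant membrane protein of atrial secretory granules. Pam gave 18986, 8782 and 11436 counts, or 1812, 838 and 903 CPM, with sham 1 at 2.01 times sham 3. It was the highest of the 8 listed genes, and all 8 averaged at least 1 CPM. Furin, a convertase that cuts the BNP precursor, stood at 141, 159 and 120 CPM, and Pcsk6, which activates Corin, at 91.1, 109 and 98.3 CPM. Furin had the same heart order as Corin. Furin, Pcsk6, Ide and Mme, 4 of the 8, were highest in sham 2, and the other 4 were lowest there. Over all rows with at least 1 CPM, these shares were 20.98% and 48.8%. Of the peptide-degrading enzymes, Ide was at 140 ± 29.8 CPM and Mme, neprilysin, at 14.3 ± 1.99 CPM (SD, n = 3). Ostn, a peptide that binds the clearance receptor, gave 1, 2 and 2 counts.

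The receptors act through cyclic GMP, and the genes downstream of them were mostly detected. Of 13 effector and phosphodiesterase genes, 12 averaged at least 1 CPM. Prkg1, the main cyclic GMP-dependent kinase of the heart, was at 16.7 ± 3.59 CPM, and Prkg2 gave 6, 1 and 0 counts. Among the phosphodiesterases, Pde3a was highest at 125 ± 7.47 CPM, followed by Pde2a at 105 ± 13.8 and Pde1c at 61.8 ± 5.70. Pde5a and Pde9a, which are selective for cyclic GMP, were at 2.39 ± 0.292 and 3.84 ± 1.28 CPM (SD, n = 3 each). Pln, phospholamban, a substrate of cyclic nucleotide-dependent kinases, was at 7562 ± 348 CPM.

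Other guanylyl cyclases were compared with the receptor cyclases per kb of transcript. The soluble cyclase subunits Gucy1a1 and Gucy1b1, which respond to nitric oxide, stood at 7.08 and 6.98 CPM per kb, close to Npr1 at 7.15 and below Npr2 at 20.5. Per kb of coding sequence they stood at 16.1 and 12.1, above Npr1 at 9.16 and below Npr2 at 23.8. Of the other membrane cyclases, Gucy2c and Gucy2f were at 0 in all 3 hearts, Gucy2d gave 2, 1 and 0 counts, Gucy2e 16, 0 and 5 and Gucy2g 5, 3 and 10. Npr1 and Npr2 were thus the membrane cyclases clearly detected. Of the inhibitory G proteins that the clearance receptor is known to engage, Gnai2 was at 311 ± 22.2 CPM, Gnai3 at 26.6 ± 4.54 and Gnai1 at 5.48 ± 2.58 (SD, n = 3 each).

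Nppa and Nppb lie next to each other on the same strand of mouse chromosome 4, and their promoters are shown because the 2 genes share a neighbourhood but differed in spread. The sequences are the 250 bases before the RefSeq start (GRCm38.p6, plus strand), 5′ to 3′, at chr4:148000472-148000721 for Nppa and chr4:147985650-147985899 for Nppb. This is the build of the sequence table, while the counts were made on mm9. Capitals mark every match on either strand to GATAA (the core of GATA factor sites), TNAAGTG (an NK2 homeobox element), CATTCC (the M-CAT element of TEAD factors) or TATAAA.
Nppa: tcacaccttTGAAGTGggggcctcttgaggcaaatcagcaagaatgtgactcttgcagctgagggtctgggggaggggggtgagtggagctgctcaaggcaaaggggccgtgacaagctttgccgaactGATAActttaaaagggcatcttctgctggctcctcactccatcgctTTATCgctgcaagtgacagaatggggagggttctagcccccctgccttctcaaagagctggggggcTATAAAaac
Nppb: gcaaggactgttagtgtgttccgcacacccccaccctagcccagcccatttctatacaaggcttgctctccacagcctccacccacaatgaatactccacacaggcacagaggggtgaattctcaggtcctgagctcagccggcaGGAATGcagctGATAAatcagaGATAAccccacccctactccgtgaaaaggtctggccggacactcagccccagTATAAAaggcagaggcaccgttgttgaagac
Nppa held 2 GATAA matches, 1 on each strand, and Nppb held 2 on the plus strand. Nppa held 1 TNAAGTG match and Nppb 1 CATTCC match, each had 1 TATAAA match, and no 2 matches overlapped. Of 32851 RefSeq promoter windows of this length, 22.6% held GATAA, 10.1% TNAAGTG, 12.6% CATTCC and 12.4% TATAAA. The CArG box, the site of serum response factor, was found by its usual consensus in 1.47% of windows and in none of the 7 members. Of the other 5 members, Nppc held 1 TATAAA match and the windows of the receptors and Corin held none of these letters.

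The factors known to act at these promoters were measured in the same hearts. All 12 of the list averaged at least 10 CPM, with a median CV of 9.24%, against 9.32% over all rows of that level. Gata4 was at 168, 156 and 164 CPM in sham 1, 2 and 3, Nkx2-5 at 62.4, 72.7 and 69.1, and Tead1 at 262, 283 and 302. Tbx5, a T-box factor, was the most uneven, with 67.5, 39.2 and 34.97 CPM. The highest over the lowest heart was 1.93 for Tbx5 and 18.9 for Nppa. The part of these factors in the Nppa values was not tested.

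Clcn6 and Plod1, which lie near the hormones on chromosome 4, did not share the pattern of Nppa. Clcn6, the next coding gene on the far side of Nppa, gave 192, 191 and 221 counts, or 18.3, 18.2 and 17.4 CPM. Plod1, on the side of Nppb with the coding gene 2510039O18Rik between them, gave 128, 125 and 150 CPM. In the GENCODE annotation, Nppa, Npr1, Npr2, Npr3 and Corin each overlap at least 1 gene on the opposite strand. None of these overlapping genes is a row of the table under that symbol, and because the strandedness of the counting is not known, reads from them cannot be told apart from those of the members.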

How the data were processed

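The series holds RNA-seq of total RNA in 6 wild-type mouse heart samples, of which the 3 sham columns were used. The tools named in the submitters' processing notes are HTSeq, HISAT2, Trimmomatic and DESeq, and the build named there is mm9. No source used here gives their versions, the annotation or whether counting used strand. The values the authors deposited are raw counts for each gene symbol, and columns were matched to samples by title. Column totals in the sham samples ran from 10474487 to 12669724 counts.

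CPM is the count divided by its column total, times 1000000. Levels per length used the longest protein-coding transcript of each gene in GENCODE mouse release M21, a GRCm38 annotation, or its longest coding sequence. Exact 95% Poisson intervals, and exact conditional binomial intervals for the ratio of 2 libraries, cover counting error only. Spread was the coefficient of variation over 3 hearts, set beside all rows with a mean of at least 10 CPM. Likeness to a gene was the Euclidean distance between log2 CPM values centred over the 3 hearts, and the 10 rows nearest to Nppa and the 3 nearest to Nppb were named. All 7 members are described, and other genes come from fixed lists for the pathway and for cell types. Members and lists were chosen with earlier results of these data known.

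Calculations used Python 3.11.15, scipy 1.17.1 and pandas 2.3.3, and the ratio intervals, spread and likeness were tested on simulated data. Scaling alternatives were TMM factors from edgeR 4.0.16 and size factors from DESeq2 1.42.0, in R 4.3.3, neither of which was used for a test. Hearts were also left out in turn, and other level minima and gene lengths were tried. No test of CKD against sham was made, because the row labels of the CKD columns did not match their values, so no p-value over genes is given. Some members of the lists and some sequences are not reported here.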

Additional observations from a re-analysis of the deposited data

How the results depend on the processing

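Of 140 alternatives, 115 stayed within the limit set for their kind of value, 24 moved past it and 1 reversed. Some of the 115 could not move. Scaling of totals cancels in a ratio within a heart, and leaving out the middle heart keeps the highest over the lowest. For Nppa the limit was 619 CPM on a mean of 512 CPM, so 158 CPM without sham 1 still counted as within it. The tally is therefore not a measure of robustness. The limit was 1 SD over hearts for levels, ratios and the atrial share, the exact counting interval for the highest over the lowest heart, and 1.5 times for CV percentiles and counts of nearest genes. Leaving the 100 highest rows out of the totals raised mean levels to 186 CPM for Nppb, 43.2 for Npr1, 111 for Npr2, 28.3 for Npr3 and 400.5 for Corin. The highest over the lowest heart for Corin was 1.47 with TMM and 1.48 with DESeq2 size factors. Among all rows above 0 the CV percentile was 44.6 for Npr1, 7.99 for Npr2, 55.7 for Npr3 and 49.0 for Corin. Without Nppa, an alternative chosen after seeing the data, log2 hormones to receptors was 2.36 and log2 hormones to Corin 1.51. Per coding length, log2 Npr1 to Npr3 reversed to -0.36 and log2 Npr2 to Npr3 was 1.02. With the union of exons, also chosen after seeing the data, log2 Npr1 to Npr3 was 1.59. Among rows of at least 50 CPM, 3 of the 10 genes nearest to Nppa and 1 of the 3 nearest to Nppb were kept, fewer rows being compared. With 1 heart left out, the highest over the lowest heart ranged from 3.90 to 18.9 for Nppa, 1.00 to 1.64 for Nppb, 1.04 to 1.28 for Npr1, 1.05 to 1.44 for Npr3 and 1.11 to 1.36 for Corin. Nppc was too shallow, at 1 count or fewer, to compare hearts. No paired analysis was possible because the results come from the sham hearts alone and from no test between groups.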

Other observations

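Lists of other cell types also differed between the sham hearts, and mostly with sham 2 lowest, as were 48.8% of all rows with at least 1 CPM. Smooth muscle and pericyte markers summed to 1153, 1079 and 1379 CPM in sham 1, 2 and 3. Of the 8, 7 were lowest in sham 2 and 7 were highest in sham 3, as were 42.0% of all rows at that level. Among them Cnn1, a smooth muscle actin-binding protein, gave 52, 3 and 143 counts. Rgs5, in contrast, was even, at 711, 726 and 718 CPM. Adipocyte markers summed to 19.2, 1.34 and 18.3 CPM, with Adipoq, the gene of adiponectin, at 30, 2 and 27 counts and Lep at 0, 0 and 2. Mesothelial markers, of the outer surface of the heart, summed to 20.4, 4.68 and 10.9 CPM. Upk3b gave 92, 1 and 34 counts, while Wt1 differed less, with 62, 47 and 68. The 3 lung markers in the table were at 0 in all 3 hearts. The part of these cell types in the levels of the natriuretic peptide genes was not tested.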
